A study of Arabidopsis thaliana with 10 samples.

Results

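Seedlings of the Arabidopsis thaliana single mutant atbmi1a were compared with wild type (WT) by RNA sequencing of total RNA, all in the Col-0 ecotype at 10 days after germination. The libraries were taken by genotype label, and the comparison holds 4 of the 10 libraries of the series: 2 labelled as the atbmi1a single mutant and 2 labelled as WT, with every one of the 27086 loci in the deposited tables. The other 6 libraries, 2 each of the single mutant atbmi1b, of a strong double mutant (atbmi1ab_strong) and of a triple mutant (atbmi1abc), entered the fit to estimate the spread and served as points of reference. The labels describe whole seedlings and name no allele, no plant number, no growth light and no hour of harvest, and nothing states that replicates came from separate cultures, so a p-value here speaks of how far these particular libraries spread, which may be a technical matter. In such bulk samples, fewer cells of a type and less RNA per cell cannot be told apart.

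AtBMI1A, the gene named by the mutant label, and its relatives AtBMI1B and AtBMI1C encode proteins with a RING finger that belong to Polycomb repressive complex 1 (PRC1). As a class such proteins add ubiquitin to histone H2A and, together with Polycomb repressive complex 2 (PRC2), which methylates histone H3, keep developmental genes silent. In Arabidopsis seedlings AtBMI1 proteins are best known for shutting off the embryo and seed maturation programme after germination, with AtBMI1A and AtBMI1B acting redundantly.

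AtBMI1A (AT2G30580, chromosome 2, 13025911 to 13030661) was the check of the label, and it went against what a loss of transcript would give. Its level was 6.91 and 6.08 FPKM (fragments per unit of transcript length and of library size) in the WT libraries and 26.8 and 33.4 FPKM in the libraries labelled atbmi1a. Both mutant-labelled libraries stood above both WT libraries, and the log2 difference was 2.05 ± 0.16 (SE, n = 2 per group; limma, Benjamini-Hochberg adjusted p = 0.000275). A single value per locus does not show which part of the gene the reads came from. The 8 libraries of the other genotypes lay between 6.08 and 13.7 FPKM. Among them were atbmi1ab_strong, at 7.89 and 9.19 FPKM, and atbmi1abc, at 10.3 and 13.7 FPKM, whose labels also name a mutation of this gene. For this reason the mutant libraries are called the libraries labelled atbmi1a throughout, and every direction below rests on that label. AtBMI1B was at 7.86 and 7.76 FPKM in them against 6.34 and 5.86 in WT, which did not pass the test (0.31, adjusted p = 0.0731). AtBMI1C stayed at 0.209 and 0.101 FPKM, beside 0.136 and 0.0456 in WT.

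**Figure D1:**
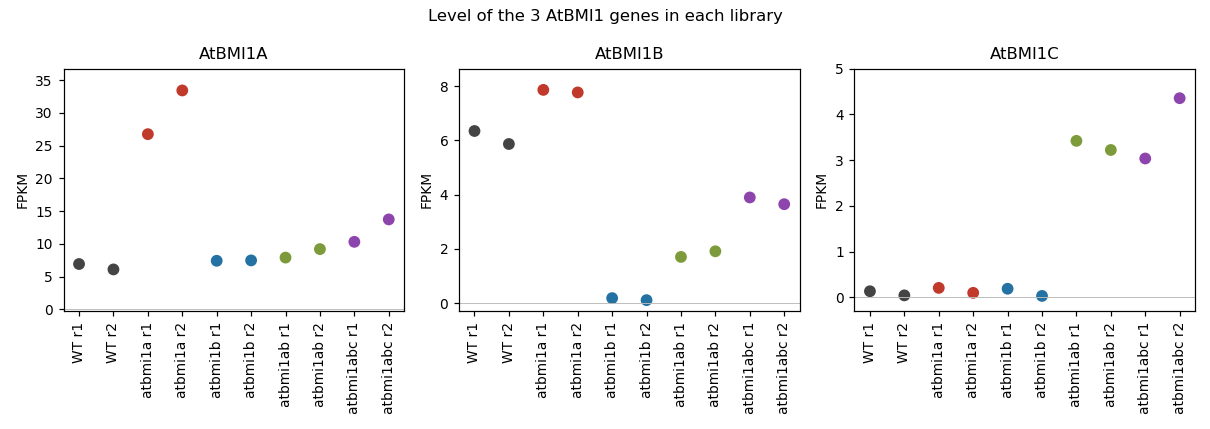
Level in FPKM (vertical axes, linear) of AtBMI1A, AtBMI1B and AtBMI1C in each of the 10 libraries (r1 and r2 are replicates; atbmi1ab stands for atbmi1ab_strong; each point is 1 library). AtBMI1A is highest in the libraries labelled atbmi1a, at 26.8 and 33.4 FPKM, and AtBMI1C is near 0 in WT and in both single mutants.

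Among the other PRC1 and PRC2 genes 1 was called, EMF1. Its lower level was not particular to the libraries labelled atbmi1a: it was at 5.92 and 7.19 FPKM in atbmi1b (limma, adjusted p = 0.955 between the single mutants). In atbmi1ab_strong it was at 5.80 and 5.95 FPKM and in atbmi1abc at 5.52 and 5.20 FPKM. EMF1, a plant-specific partner of both complexes, fell from 9.59 and 10.1 FPKM to 6.07 and 7.21 FPKM (-0.51 ± 0.13, adjusted p = 0.0171), a call that ended without either WT library (adjusted p = 0.0565 and 0.0857) or without replicate 1 of the libraries labelled atbmi1a (adjusted p = 0.0728). The RING partner gene RING1A was at 5.74 and 5.44 FPKM beside 5.56 and 6.19 in WT, its relative RING1B at 7.24 and 7.59 beside 5.73 and 6.13 (limma, adjusted p = 0.0675), and LHP1, a reader of the PRC2 mark, at 12.6 and 11.2 beside 10.8 and 10.6. None of the 6 tested PRC2 genes was called in limma's test, and 0 had an unadjusted p under 0.05, nor was either of the 2 tested VAL genes, whose B3-domain proteins recruit Polycomb complexes to seed genes. VAL1 was at 17.5 and 15 FPKM against 12.1 and 13.4 in WT (limma, adjusted p = 0.0648), the 1 of these 8 genes with an unadjusted p under 0.05. With organelle loci removed and libraries rescaled, EMF1 was no longer called (adjusted p = 0.0517), and 3 of 7 PRC1 genes and 1 VAL gene were called higher.

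Genes beside AtBMI1A on chromosome 2 were read for local differences. PSBW, a photosystem II subunit gene, fell (1850 and 2120 FPKM against 2662 and 3262 in WT), and AT2G30600 and AT2G30615 were at 30.6 and 27.1 FPKM and at 10.7 and 10.2 FPKM, against 134 and 143 FPKM and 35 and 41 FPKM in WT. AT2G30600 and AT2G30615 were also low in every atbmi1b, atbmi1ab_strong and atbmi1abc library, at no more than 32.3 and 9.36 FPKM. The immediate neighbours LGT5 and WRKY21, at 6.16 and 5.77 FPKM and at 33.1 and 26.7 FPKM, lay at 6.39 and 6.24 FPKM and at 24.1 and 29.5 FPKM in WT. AT2G30540 and AT2G30550 were called higher and AT2G30620 lower, each call ending without replicate 1 of the libraries labelled atbmi1a (adjusted p = 0.0551, 0.125 and 0.0824) and without WT replicate 2, the first 2 also without WT replicate 1. The call of PSBW ended without WT replicate 2 (adjusted p = 0.0515).

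The 2 libraries labelled atbmi1a resembled each other less than any other replicate pair. Tests covered 19460 loci whose mean over the 10 libraries reached 1 FPKM. Over these loci their log2 values correlated at 0.956, and 1080 loci lay more than 1 log2 unit apart in the pair, 437 higher in replicate 1 and 643 higher in replicate 2. The other pairs had 118 to 517 such loci, the WT pair 162. Each of these libraries correlated more closely with both atbmi1b libraries (0.958 to 0.968) than with the other one of its own label, and with the WT libraries at 0.901 to 0.926. By the median absolute log2 difference the order was reversed, at 0.188 within the pair and 0.218 to 0.234 to the atbmi1b libraries. FPKM summed to 848221 and 828577 in the libraries labelled atbmi1a and to 886169 and 990295 in WT. Chloroplast-encoded loci made up 0.744% and 2.25% of the WT sums against 0.0666% and 0.0599% of the sums labelled atbmi1a. Absolute depth is unknown, since only FPKM values were used.

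Across all tested loci, 3299 were higher in the libraries labelled atbmi1a (17% of those tested) and 3575 were lower (18.4%), at an adjusted p under 0.05. With organelle loci removed and each library rescaled, 4437 were higher and 2338 lower, the median of all loci moving from 0.02 to 0.14. Changes of more than 1 on the log2 scale were called for 829 loci upward (4.26%) and 816 downward (4.19%). Each count of list members below reads against these shares. The calls depended on the shared estimate of spread: from the 4 WT and atbmi1a libraries alone, 1366 and 1685 loci were called, and 1952 and 2373 without WT replicate 1 or 1725 and 2077 without WT replicate 2.

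The largest named rises and falls fell into a few groups. The 10 called genes with the largest rise among loci that carry a gene symbol (averaging 2 FPKM or more in the 4 libraries, no overlap between groups, which held for 68% of all tested loci) held 5 chaperone genes of the heat-shock response (HSP17.4, HSP17.6A, HSP17.6II, HSP70 and HSP90.1), the co-chaperone ROF2, the light-stress genes ELIP1 and ELIP2, the zinc-finger stress regulator ZAT10 and DIC2, a mitochondrial dicarboxylate carrier. Their log2 differences ran from 4.44 for ZAT10 to 5.36 for DIC2. DIC2 rose from 2.44 and 1.23 FPKM to 60.2 and 211 FPKM (adjusted p = 0.0126), with its call lost without WT replicate 2 or without replicate 2 of the libraries labelled atbmi1a (adjusted p = 0.0731 and 0.0501). The 10 genes with the largest fall by the same rule were CCL, BCAT-2, COR413IM1, IAA29, SEN1, MYBL2, PAR1, FLP1, Fes1B and WCRKC1, from -5.13 for CCL to -3.10 for WCRKC1. CCL, whose transcript is known for peaking at one time of day and being short-lived, fell from 792 and 1061 FPKM to 19 and 33.2 FPKM. Each of the 10 rising and the 10 falling genes lay on the same side of WT in both atbmi1b libraries as well. ELIP1, at 307 and 418 FPKM in atbmi1b, and CCL, at 6.89 and 10.5 FPKM, are examples, so these shifts were not particular to the libraries labelled atbmi1a.

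**Figure D2:**
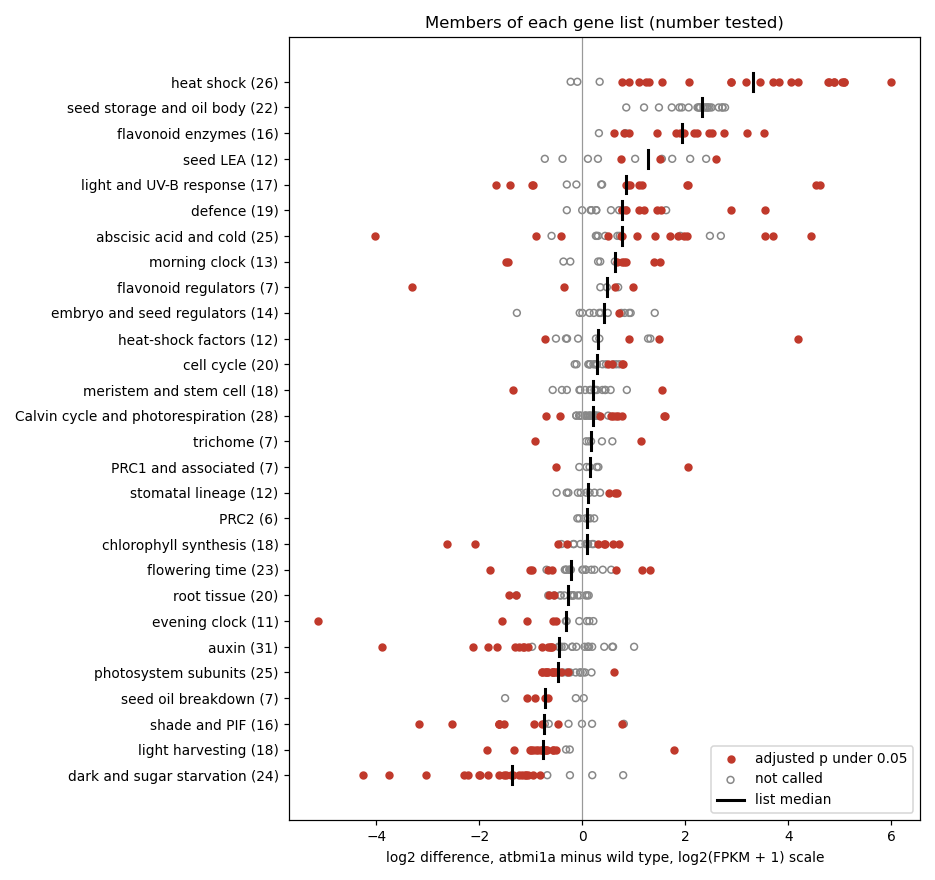
Log2 difference between the libraries labelled atbmi1a and WT on the log2(FPKM + 1) scale (horizontal axis) for every tested member of the gene lists with at least 6 tested members (rows, number tested in brackets). Each point is a gene, filled where the adjusted p was under 0.05, and the bar is the list median. Heat-shock genes lie highest (median 3.32) and dark and sugar starvation genes lowest (median -1.37), while seed storage genes have a raised median (2.32) with no filled point.

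Promoters of 5 genes that carry the main groups are printed here, as the 250 bases before the gene start that RefSeq annotates on TAIR10.1, read 5′ to 3′ on the gene's strand; capitals mark the motif searched for in that group. They are HSP17.4 (chr3:16984868-16985117, minus strand; heat-shock element of 3 units, GAA, TTC and GAA, with any 2 bases between units), CHS (chr5:4488226-4488475, plus strand; G-box CACGTG), LHY (chr1:37872-38121, minus strand; G-box), PRR5 (chr5:8358547-8358796, minus strand; evening element AAAATATCT) and BCAT-2 (chr1:3287837-3288086, plus strand; I-box GATAAG), and both strands were searched.
HSP17.4: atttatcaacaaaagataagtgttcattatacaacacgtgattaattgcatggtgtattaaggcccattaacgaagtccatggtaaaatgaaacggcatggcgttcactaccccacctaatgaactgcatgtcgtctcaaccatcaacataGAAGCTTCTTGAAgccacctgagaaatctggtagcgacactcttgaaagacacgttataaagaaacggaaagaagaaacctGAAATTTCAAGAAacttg
CHS: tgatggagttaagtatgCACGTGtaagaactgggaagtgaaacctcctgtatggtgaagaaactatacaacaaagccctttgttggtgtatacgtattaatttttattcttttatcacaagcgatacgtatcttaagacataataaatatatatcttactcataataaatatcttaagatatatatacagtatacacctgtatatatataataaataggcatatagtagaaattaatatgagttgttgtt
LHY: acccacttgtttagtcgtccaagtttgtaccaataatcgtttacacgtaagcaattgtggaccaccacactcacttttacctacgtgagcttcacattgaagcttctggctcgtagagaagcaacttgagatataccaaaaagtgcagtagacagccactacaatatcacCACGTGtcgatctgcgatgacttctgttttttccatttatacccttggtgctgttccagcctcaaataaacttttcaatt
PRR5: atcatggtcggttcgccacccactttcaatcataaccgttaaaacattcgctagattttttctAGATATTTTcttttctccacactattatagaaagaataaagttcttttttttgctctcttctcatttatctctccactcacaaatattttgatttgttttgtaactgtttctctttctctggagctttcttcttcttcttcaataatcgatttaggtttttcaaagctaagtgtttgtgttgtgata
BCAT-2: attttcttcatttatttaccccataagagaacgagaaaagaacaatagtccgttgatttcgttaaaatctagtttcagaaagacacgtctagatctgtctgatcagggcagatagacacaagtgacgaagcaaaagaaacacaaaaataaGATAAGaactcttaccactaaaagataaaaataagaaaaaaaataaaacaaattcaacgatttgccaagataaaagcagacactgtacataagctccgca
Among 27443 protein-coding genes the heat-shock element was present in 0.386% of such windows, the G-box in 6.49%, the evening element in 2.36% and the I-box in 12.3%. HSP17.4 held 2 heat-shock elements that began 99 and 18 bases before the gene start, CHS a G-box at -233, LHY a G-box at -80, PRR5 an evening element on the other strand at -187 and BCAT-2 an I-box at -100. The heat-shock element was in 3 of the 23 heat-shock genes that rose (13.0%) and the G-box in 4 of 14 flavonoid enzyme genes that rose (28.6%). The I-box was in 9 of 19 dark and sugar starvation genes that fell (47.4%). Over the whole clock lists, called or not, the G-box was in 7 of 13 morning genes (53.8%) and the evening element in 8 of 12 evening genes (66.7%). Among called morning genes the G-box was in 3 of 6 that rose and in 1 of 2 that fell. The evening element was in 3 of 5 evening genes that fell. A match describes these letters only, and each of these lists also held genes without one. One of the 20 falling starvation entries, which merges 2 neighbouring loci, has no single gene start and was left out.

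Heat-shock genes rose together. Many of them encode chaperones, which keep damaged proteins soluble or refold them and are normally driven by heat-shock factors. The list also holds genes of other kinds, such as GOLS1 and MBF1C, both called higher. Of 26 tested genes 23 rose (beside 17% of all loci) and none fell, with a median log2 difference of 3.32 against 0.02 for all loci. The list median against atbmi1b was 0.25, so atbmi1b held much of the same rise. HSP17.4, a cytosolic small heat-shock protein (AT3G46230, chromosome 3), was at 0.398 and 0 FPKM in WT and at 45.5 and 33.4 FPKM in the libraries labelled atbmi1a (5.08 ± 0.26, adjusted p = 8.14e-05). HSP17.6II was at 0.138 and 0 FPKM in WT and at 33.3 and 24 FPKM (4.78 ± 0.21, adjusted p = 5.8e-05). The small heat-shock protein gene AT1G07400 had the largest rise of the list, from 0.909 and 1.26 FPKM to 214 and 81.6 FPKM (6.003, adjusted p = 0.000336). HSP101, the disaggregase needed for heat tolerance, was at 3.5 and 3.65 FPKM in WT and at 72.2 and 14.6 FPKM (2.88, adjusted p = 0.0102). Both libraries labelled atbmi1a stood above both WT libraries for each of these 4 genes, replicate 1 being the higher of the 2. The call of HSP101 ended without WT replicate 1 or WT replicate 2 (adjusted p = 0.052 and 0.0538). With only the 4 WT and atbmi1a libraries in the fit, 20 genes of the list were called higher. The list median was 4.01 in replicate 1 and 2.55 in replicate 2, and it was 3.22 without WT replicate 1 and 3.41 without WT replicate 2. The 3 tested genes that were not called were HSC70-1, a constitutive chaperone at 1727 and 1166 FPKM against 1088 and 1161 in WT, HSP70B and BAG6. HSP21, APX2 and ATHSP22.0 remained under 1 FPKM in all 4 libraries and were not tested.

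In the list of heat-shock factors, which also holds DREB2A and DREB2B from another factor family, 3 of 12 tested genes rose and 1 fell. HSFA2, the inducible activator that prolongs the response, rose from 0.42 and 0.121 FPKM to 55.9 and 8.27 FPKM (4.19 ± 0.71, adjusted p = 0.00413), a wide gap between its replicates. HSFB1, a repressor of the response, rose from 18.1 and 15.5 FPKM to 51.8 and 46.3 FPKM (1.49). HSFA1B, one of the constitutive master factors, fell from 8.08 and 8.59 FPKM to 4.51 and 4.8 FPKM (-0.72). HSFB2B was called higher with all libraries (0.91), but not without replicate 1 of the libraries labelled atbmi1a (adjusted p = 0.118) or without WT replicate 1 or 2 (adjusted p = 0.0887 and 0.124).

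Flavonoid enzyme genes rose together. This pathway turns phenylalanine into flavonols and anthocyanins, which absorb ultraviolet light. Of 16 tested genes 14 rose (beside 17% of all loci) and none fell, with a median of 1.94. With only the 4 WT and atbmi1a libraries in the fit, 11 were called higher. CHS, chalcone synthase, which makes the first flavonoid (AT5G13930, chromosome 5), rose from 33.1 and 45.6 FPKM to 244 and 141 FPKM (2.23 ± 0.24, adjusted p = 0.000741). Next in the pathway, CHI, chalcone isomerase, rose from 10.7 and 10 FPKM to 54.2 and 31.4 FPKM, and F3H from 5.57 and 6.09 FPKM to 88.3 and 43.1 FPKM. FLS1, which makes flavonols, had the largest difference of the list, from 2.65 and 2.03 FPKM to 59 and 23.3 FPKM (3.52 ± 0.35, adjusted p = 0.000535). On the anthocyanin side, DFR rose from 0.494 and 0.436 FPKM to 8.97 and 5.55 FPKM and LDOX from 0.204 and 0.275 FPKM to 7.26 and 5.06 FPKM. Replicate 1 was the higher library for each of these 6 genes, and both libraries lay above both WT libraries. The 2 tested genes that were not called were PAL2 and TT7.

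Of the pathway's regulators, MYB111, an activator of flavonol synthesis, rose from 0.644 and 0.909 FPKM to 2.68 and 2.34 FPKM (0.99, adjusted p = 0.01; 0.0592 without WT replicate 1). MYBL2, a repressor of anthocyanin synthesis, fell from 143 and 182 FPKM to 17.9 and 13.3 FPKM (-3.30 ± 0.37, adjusted p = 0.000784). EGL3 rose and TTG1 fell, each by less than 0.7 on the log2 scale, and each call ended when WT replicate 2 (adjusted p = 0.0845 and 0.188) or replicate 1 of the libraries labelled atbmi1a (0.0693 and 0.0828) was left out; that of EGL3 also ended without WT replicate 1 and that of TTG1 without the mutant replicate 2. PAP1, PAP2 and TT8 had means under 1 FPKM over the 10 libraries and were not tested.

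Of 17 tested light and ultraviolet-B response genes 9 rose and 4 fell (UVR8, BBX22, RUP1 and UVR3). ELIP1 and ELIP2, pigment-binding proteins made under high light, rose from 5.65 and 4.14 FPKM to 223 and 90.4 FPKM (4.61 ± 0.37, adjusted p = 0.000282) and from 14.8 and 6.04 FPKM to 299 and 197 FPKM (4.53 ± 0.35, adjusted p = 0.000257). HYH, a bZIP factor of light signalling, rose from 20.7 and 19.5 FPKM to 79.8 and 93.5 FPKM (2.05), and its relative HY5, the central activator of light-grown development, from 9.62 and 10.4 FPKM to 19.3 and 19.1 FPKM (0.88). UVR8, the ultraviolet-B receptor, fell from 50.4 and 57.7 FPKM to 27.9 and 25.7 FPKM (-0.98), and BBX22, a B-box factor that works with HY5, fell from 22.1 and 27.9 FPKM to 8.11 and 6.16 FPKM (-1.68).

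Several morning clock genes were higher, and the evening clock genes that passed the test were all lower. The circadian clock of plants has morning genes that repress evening genes and the reverse, so levels in 1 harvest depend on its hour, which the labels do not give; hour and genotype therefore cannot be told apart here. Of 13 morning genes 6 rose and 2 fell (4 and 1 without WT replicate 1), and of 11 tested evening genes 5 fell and none rose. The morning repressors LHY (AT1G01060, chromosome 1) and CCA1 rose from 53.6 and 55.7 FPKM to 173 and 145 FPKM (1.52 ± 0.12, adjusted p = 0.000257) and from 55.1 and 52.8 FPKM to 138 and 149 FPKM (1.39 ± 0.12, adjusted p = 0.000329). Their relative RVE8, an activator of evening genes, rose from 26 and 28.6 FPKM to 47.7 and 49.2 FPKM, and LNK1, its coactivator, from 27.2 and 28.9 FPKM to 56 and 47.3 FPKM. In these 4 genes the replicates lay close together and clear of WT.

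PRR7, a day-phase repressor placed in the morning list, fell from 67 and 69.7 FPKM to 23.4 and 26 FPKM (-1.43 ± 0.16, adjusted p = 0.000822). In the evening list PRR5 fell from 2.63 and 2.3 FPKM to 0.13 and 0.209 FPKM (-1.57 ± 0.15, adjusted p = 0.000475), GI, which links the clock to flowering, from 11.5 and 11.5 FPKM to 5.61 and 4.33 FPKM (-1.07), and ELF3 from 13.8 and 13.6 FPKM to 9.17 and 9.43 FPKM (-0.51). TOC1, the evening repressor of LHY and CCA1, was at 9.1 and 14.6 FPKM beside 9.97 and 11.7 in WT and was not called (adjusted p = 0.766). The 5 falling evening genes held the evening element in 3 of their promoters, the one of PRR5 printed above among them.

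**Figure D3:**
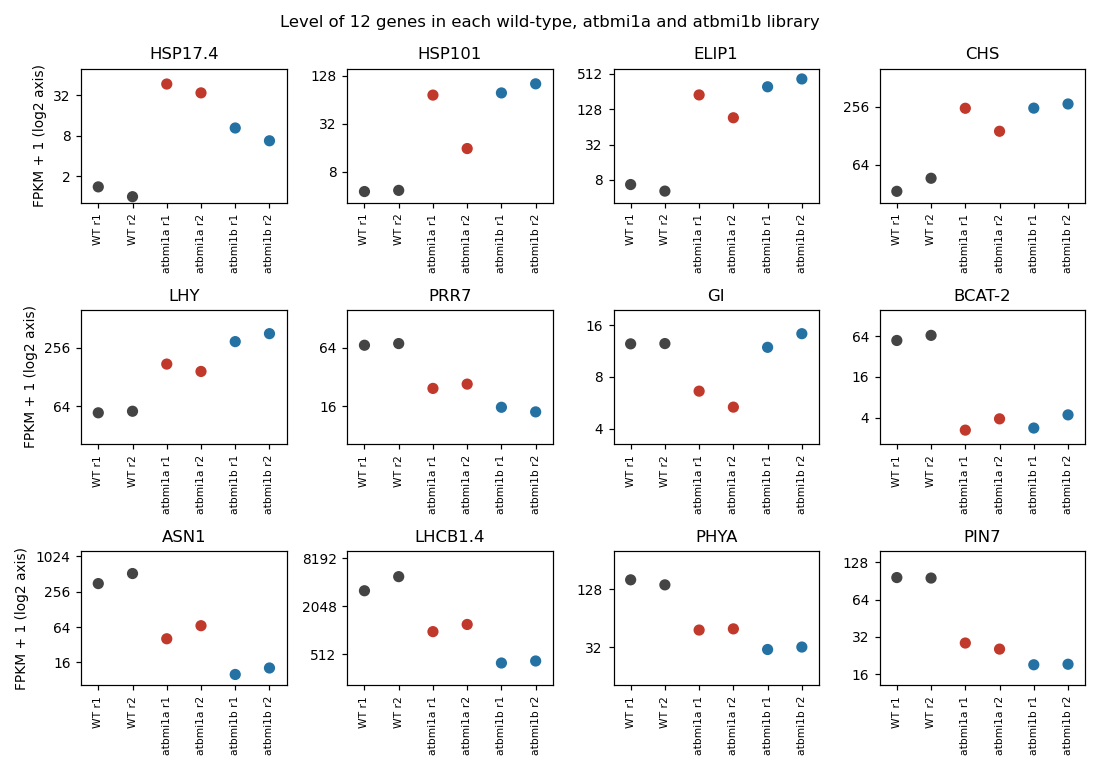
Level of 12 genes as FPKM + 1 on a log2 axis (vertical, scaled per gene) in the 2 WT, 2 atbmi1a and 2 atbmi1b libraries (horizontal; each point is 1 library). In each panel both libraries labelled atbmi1a lie on one side of both WT libraries, above them from HSP17.4 to LHY and below them from PRR7 to PIN7, while HSP101 shows the gap between replicates (72.2 and 14.6 FPKM).

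Genes of dark and sugar starvation were low as a group. They are switched on when carbon runs short, as at night, and many encode enzymes that burn amino acids and sugars. Of 24 tested genes 20 fell (beside 18.4% of all loci) and none rose, with a median of -1.37. BCAT-2, a branched-chain amino acid transaminase (AT1G10070, chromosome 1), fell from 54.5 and 65 FPKM to 1.61 and 2.84 FPKM (-4.26 ± 0.26, adjusted p = 0.000109). IVD and MCCA, mitochondrial enzymes of leucine breakdown, fell from 62.1 and 60.3 FPKM to 15.5 and 17.44 FPKM (-1.84) and from 118 and 138 FPKM to 31.1 and 31.2 FPKM (-2.00). ASN1, the dark-induced asparagine synthetase, fell from 351 and 522 FPKM to 39.4 and 66.5 FPKM (-3.04 ± 0.35, adjusted p = 0.000913), SEN1 from 1680 and 2078 FPKM to 124 and 151 FPKM, and the sugar transporter gene STP1 from 305 and 408 FPKM to 81.3 and 68.3 FPKM. GDH1, a glutamate dehydrogenase, fell by 1.11 on the log2 scale. For each of these 7 genes the highest library labelled atbmi1a lay below the lowest WT library. The 4 genes that were not called were DIN2, DIN9, DIN11 and ERD5. The 2 replicates gave list medians of -1.28 and -1.50, and 15 to 21 genes were called lower when any of the 4 libraries was left out.

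Storage-oil breakdown, which feeds a seedling before it can photosynthesise, was also lower in part. PCK1, the gluconeogenic enzyme, fell from 232 and 218 FPKM to 126 and 112 FPKM (-0.91 ± 0.10, adjusted p = 0.000771), and the oil-body lipase SDP1 from 32.7 and 34.8 FPKM to 15.69 and 15.1 FPKM (-1.08). KAT2 and ACX2, enzymes of fatty acid beta-oxidation, fell by 0.66 and 0.72 on the log2 scale. ICL, an enzyme of the glyoxylate cycle, differed as much within pairs as between them, at 42.4 and 3.1 FPKM in WT and 14.8 and 0.409 FPKM in the libraries labelled atbmi1a.

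Shade and PIF genes were lower in 9 of 16 members and higher in 1. PHYA, the far-red photoreceptor that is abundant in the dark, fell from 158 and 140 FPKM to 47.3 and 48.7 FPKM (-1.61 ± 0.09, adjusted p = 9.78e-05). XTR7, a cell wall enzyme gene induced by shade, fell from 222 and 176 FPKM to 40.7 and 27.1 FPKM (-2.54 ± 0.21, adjusted p = 0.000328). PIF3 and PIF4, factors that promote elongation, fell from 32.9 and 30 FPKM to 10.9 and 8.3 FPKM and from 58.4 and 68.7 FPKM to 37 and 36.1 FPKM, while PIF7 rose from 9.23 and 11.2 FPKM to 19.6 and 16.8 FPKM (0.78). The call of PIF4 ended without WT replicate 2 (adjusted p = 0.0683). HFR1 and PAR1, which restrain the PIFs and are induced with their targets, fell by 1.62 and 3.18 on the log2 scale.

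Auxin genes fell in 14 of 31 tested members and none rose. IAA29, an auxin and shade response gene, fell from 26.4 and 29.2 FPKM to 1.16 and 0.729 FPKM (-3.90 ± 0.26, adjusted p = 0.000161). The auxin efflux carrier gene PIN7 fell from 95.4 and 94.5 FPKM to 27.5 and 24.5 FPKM (-1.83 ± 0.10, adjusted p = 9.78e-05), the influx carrier gene AUX1 from 92.3 and 96.1 FPKM to 42.9 and 41.6 FPKM, and YUC8, an auxin synthesis enzyme, from 13.6 and 10.3 FPKM to 2.12 and 1.81 FPKM. Without WT replicate 1 or WT replicate 2, 9 and 8 auxin genes were called lower.

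Light-harvesting genes were lower in 15 of 18 members and higher in 1, and photosystem subunit genes lower in 13 of 25 and higher in 1. LHCB1.4, an antenna protein of photosystem II, fell from 3203 and 4818 FPKM to 981 and 1208 FPKM (-1.85 ± 0.22, adjusted p = 0.00107), and LHCA4, an antenna protein of photosystem I, from 6292 and 7861 FPKM to 3189 and 3803 FPKM (-1.01). LHCB4.3 rose from 10 and 9.17 FPKM to 40.2 and 31.2 FPKM (1.78 ± 0.14, adjusted p = 0.000252), and PSBS, which sheds excess light energy, from 849 and 891 FPKM to 1335 and 1315 FPKM (0.61). These calls depended on the scaling. Under quantile normalization 4 light-harvesting and 2 photosystem genes were lower and 1 and 4 higher, and 7 photosystem genes were called lower without WT replicate 2. The LHCB1 copies are close in sequence, and how reads shared between them were assigned is not given in the sources used here.

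Carbon fixation and pigment genes split. Of 28 Calvin cycle and photorespiration genes 8 rose and 2 fell: RBCS1B, a small subunit of Rubisco, rose from 777 and 611 FPKM to 2166 and 1955 FPKM (1.58 ± 0.18, adjusted p = 0.000884), and CP12-2, a regulator of the cycle, from 63 and 81.9 FPKM to 220.5 and 220.1 FPKM (1.60). Neither fall in this list was called without WT replicate 2, and with organelle loci removed 13 of its members rose. Of 18 chlorophyll synthesis genes 5 rose and 4 fell, but without WT replicate 2 the counts were 1 and 2. PORA and PORB, the protochlorophyllide reductases most abundant in dark-grown and young tissue, fell from 7.59 and 9.36 FPKM to 0.534 and 0.514 FPKM (-2.63 ± 0.15, adjusted p = 9.78e-05) and from 336 and 404 FPKM to 83.8 and 88.4 FPKM (-2.08), while PORC, the form of light-grown leaves, rose from 62 and 69.4 FPKM to 108 and 109 FPKM (0.72 ± 0.10, adjusted p = 0.00179).

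Defence genes rose in 9 of 19 tested members and none fell. PR1, a marker of salicylic acid signalling, had 0 FPKM in each WT library and was at 22.5 and 4.76 FPKM in the libraries labelled atbmi1a (adjusted p = 0.00366), and at 0 in both atbmi1b libraries. PR5 rose from 3.26 and 2.83 FPKM to 7.72 and 7.5 FPKM (1.09 ± 0.12, adjusted p = 0.000851), PAD3, the last enzyme of camalexin synthesis, from 0.344 and 0.149 FPKM to 1.27 and 1.17 FPKM, and LOX2, a chloroplast enzyme of jasmonate synthesis, from 16.7 and 8.15 FPKM to 38.7 and 33.2 FPKM. WRKY33, a regulator of camalexin genes, was at 38.7 FPKM in replicate 1 and 255 in replicate 2 against 13.3 and 11.9 in WT, and its call ended without that replicate 2 (adjusted p = 0.14) or without WT replicate 1 or 2 (adjusted p = 0.119 and 0.141). The calls of PAD3 and LOX2 ended without WT replicate 2 (adjusted p = 0.0624 and 0.0606). Without WT replicate 1, 4 defence genes were called, and without WT replicate 2, 3.

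Abscisic acid and cold genes rose in 12 of 25 tested members and fell in 3. ABF3, an abscisic acid-responsive bZIP factor, rose from 31.6 and 34.5 FPKM to 52.6 and 62 FPKM (0.77 ± 0.12, adjusted p = 0.00292), RD29A from 4.75 and 3.71 FPKM to 12.1 and 13.6 FPKM and KIN1 from 3.29 and 7.61 FPKM to 18.4 and 31.1 FPKM. ZAT10 rose from 3.85 and 3.88 FPKM to 64 and 171 FPKM. COR413IM1, a chloroplast membrane protein of the cold response, went the other way, from 91.6 and 110 FPKM to 5.9 and 4.55 FPKM (-4.04 ± 0.20, adjusted p = 6.58e-05), and COR413IM2 fell by 0.90 on the log2 scale. The call of KIN1 ended without WT replicate 1 (adjusted p = 0.0713) and that of RD29A without WT replicate 2 (adjusted p = 0.064). Without WT replicate 1, as without WT replicate 2, 4 members were called higher, 6 without replicate 2 of the libraries labelled atbmi1a, and 17 without its replicate 1.

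Genes of flower and meristem development, many of them known Polycomb targets, were read next. Of the 14 floral identity genes 4 were tested and 1 called, AP2, which fell from 18.1 and 17.3 FPKM to 11.6 and 9.02 FPKM (-0.73 ± 0.14, adjusted p = 0.00621), and AP1, AP3, PI, AG, SEP1, SHP1, SHP2, STK, LFY and CAL were under 1 FPKM in each of the 4 libraries. Flowering-time genes rose in 3 of 23 tested members and fell in 5, near the shares of all loci, and the counts were 1 and 3 without WT replicate 1, 2 and 1 without WT replicate 2 and 2 and 3 without replicate 1 of the libraries labelled atbmi1a. TEM1, a repressor of FT, fell from 103 and 121 FPKM to 43.7 and 22.6 FPKM (-1.80 ± 0.31, adjusted p = 0.00431) and SVP from 37.3 and 46.2 FPKM to 17.2 and 23.597 FPKM, while MFT, a seed-expressed relative of FT, rose from 2.79 and 3.28 FPKM to 10.5 and 6.04 FPKM. The call of SVP ended without WT replicate 2 (adjusted p = 0.0668). Among 18 tested meristem genes 1 rose and 1 fell (3 rose without WT replicate 2). CLV1, a stem cell receptor kinase, fell from 29.1 and 34.9 FPKM to 10.4 and 13.8 FPKM (-1.34 ± 0.15, adjusted p = 0.000876), and WOX2, an embryo patterning factor, rose from 0.755 and 0.544 FPKM to 3.7 and 3.98 FPKM (1.56 ± 0.25, adjusted p = 0.00324).

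Cell type markers of seedling tissues were read for differences in tissue content. Over all tested loci 18.4% were called lower and 17% higher. Root genes (20% called lower) and cell cycle genes (20% called higher) lay near these shares, and stomatal lineage genes were at 25% called higher. Root genes fell in 4 of 20 tested members, LRX1, PRP3, CASP2 and EXPA18, and their summed level was 338 and 351 FPKM in WT and 294 and 212 FPKM in the libraries labelled atbmi1a; 9 were called without replicate 1 and 1 without replicate 2. Stomatal lineage genes rose in 3 of 12 members (BASL, MUTE and STOMAGEN), trichome genes rose in 1 (TRY) and fell in 1 (GL2) of 7, and cell cycle genes rose in 4 of 20 (1 without WT replicate 2, 1 without replicate 1 and 8 without replicate 2 of the libraries labelled atbmi1a). The calls of BASL, MUTE, STOMAGEN, TRY, PRP3, CASP2 and EXPA18 each ended when 1 of at least 2 single libraries was left out (adjusted p from 0.0518 to 0.192). Pollen genes summed to 3.72 and 3.99 FPKM in WT and to 5.57 and 2.88 FPKM in the libraries labelled atbmi1a, endosperm genes to 1.46 and 0.508 FPKM and to 2.16 and 0.979 FPKM, and neither list had a called member in limma's test or a tested member (2 pollen genes, 1 endosperm gene) with an unadjusted p under 0.05. The part of tissue content in the results above was not tested.

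Seed genes separated the 2 libraries labelled atbmi1a. Storage proteins and oil-body proteins fill the embryo during seed maturation and are normally off in seedlings. Of 23 storage and oil-body genes, 22 were above both WT libraries in replicate 1, but 2 in replicate 2, where 16 were below both. For the 20 genes above 0 in both WT libraries the median ratio to the WT mean was 44.4 in replicate 1 and 0.747 in replicate 2. Of the 22 tested, 0 were called in limma's test with both libraries, which gave a median of 2.32, and 1 (OLEO4) had an unadjusted p under 0.05. The median was 4.80 in replicate 1 and -0.24 in replicate 2, given as values with no test.

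The storage gene CRA1, a 12S globulin, was at 588 FPKM in replicate 1 and 9.17 FPKM in replicate 2, against 13.6 and 12.4 FPKM in WT. SESA3, a 2S albumin, was at 578 and 9.31 FPKM against 13.9 and 12.7 FPKM, and CRU3, another 12S globulin, at 545 and 10.1 FPKM against 14.2 and 11.2 FPKM. The oil-body protein gene OLEO1 was at 352 and 4.41 FPKM against 7.95 and 6.31 FPKM. In each of these genes replicate 1 stood far above WT and replicate 2 just below it.

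Set against the triple mutant, replicate 1 carried storage and oil-body transcripts at shares within a narrow range. Over the 22 storage and oil-body genes at 100 FPKM or more in atbmi1abc, its level was a median of 2.69% of the atbmi1abc mean, with quartiles of 2.52% and 2.96% and a range of 2.22% to 4.09%. The same share was 0.0408% in replicate 2, 0.0608% and 0.0487% in the WT libraries and 0.0675% and 0.0366% in the atbmi1b libraries. Over all 121 loci at 100 FPKM or more in atbmi1abc and at most 2 FPKM in WT, the share in replicate 1 was 2.996% (quartiles 2.58% and 3.75%, range 0% to 8.24%) and that in replicate 2 0.0877%. For the 6 LEA genes at that level in atbmi1abc it was higher, a median of 5.69% with a range of 2.996% to 8.24%. Against atbmi1ab_strong the quartiles over the same 121 loci were wider, 3.24% and 6.65%. Those loci were chosen by their level in atbmi1abc with no floor in atbmi1ab_strong, so the wider spread does not compare the mutants. For the 20 storage and oil-body genes above 0 in atbmi1ab_strong, the share of its mean in replicate 1 was a median of 2.75% (quartiles 2.37% and 3.20%). CRA1 and CRU3 were listed at 0 in both atbmi1ab_strong libraries, and were at 2.32% and 2.55% of the atbmi1abc mean in replicate 1. The source of these transcripts was not tested.

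**Figure D4:**
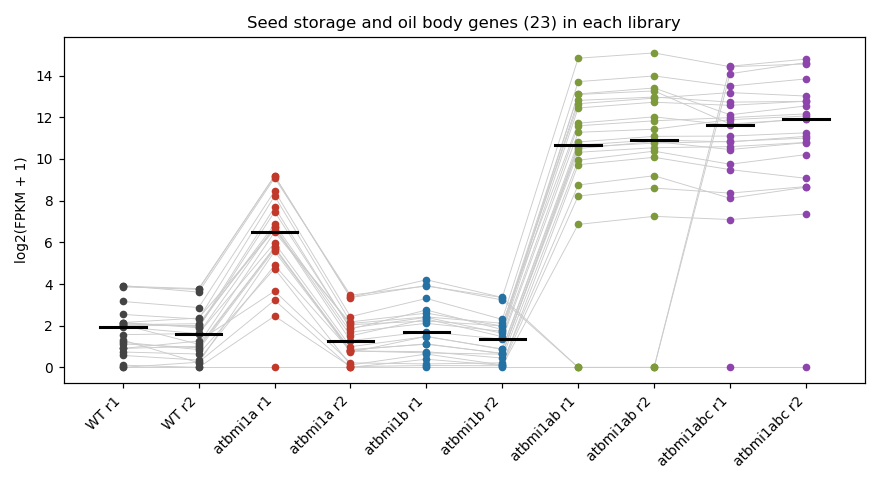
Level of 23 seed storage and oil body genes as log2(FPKM + 1) (vertical axis) in each of the 10 libraries (horizontal; atbmi1ab stands for atbmi1ab_strong; grey lines join a gene, bars are medians). Replicate 1 of the libraries labelled atbmi1a stands above WT, while replicate 2 lies with WT and atbmi1b; CRA1 and CRU3 are listed at 0 in atbmi1ab_strong and HSD1 in all 10 libraries, and a listed 0 may be a value that was not estimated.

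Late embryo abundant (LEA) genes and seed regulators followed in part. PER1, a seed peroxiredoxin in the LEA list, was at 51.6 FPKM in replicate 1 and 0.731 in replicate 2, against 0.989 and 0.634 FPKM in WT. LEA4-5 (0.428 and 1.19 FPKM in WT, 21.1 and 4.18 FPKM in the libraries labelled atbmi1a; 2.60 ± 0.60, adjusted p = 0.0135), XERO1 (0.156 and 0.157 FPKM, then 3.34 and 1.49 FPKM) and M17 (2.48 and 2.1 FPKM, then 3.49 and 5.78 FPKM) were called higher, 3 of 12 tested, and both libraries lay above WT. M17 did not share the seed pattern: it was higher in replicate 2, at 5.83 and 5.69 FPKM in atbmi1b and at 2.80 and 1.82 FPKM in atbmi1abc. Against a list median of 1.27, EM6 and M10 lay lower than WT (-0.385 and -0.729) and RAB18 was at 0.108, none of them called. Without WT replicate 1 the calls of LEA4-5 (adjusted p = 0.0791) and M17 (0.0845) ended, and that of M17 also without WT replicate 2 or the mutant replicate 2. Of 14 tested embryo and seed regulators WRI1, an activator of oil synthesis, rose from 4.56 and 7.43 FPKM to 11.5 and 8.98 FPKM (0.71 ± 0.20, adjusted p = 0.0279), a call that ended without replicate 1 (adjusted p = 0.107) or without WT replicate 1 (adjusted p = 0.126). L1L was at 5.53 FPKM in replicate 1 and 0.283 in replicate 2, AIL5 at 5.98 and 2.48 FPKM, and the master regulators ABI3 and FUS3 at 2.31 and 0.0194 FPKM and at 3.48 and 0.045 FPKM. DOG1, a regulator of seed dormancy, lay the other way, at 3.58 and 0.365 FPKM against 4.11 and 6.13 FPKM in WT (limma, adjusted p = 0.0838), and it was called lower without replicate 1. LEC2, MYB115, MYB118 and HSFA9 stayed under 1 FPKM in both.

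Replicate 2 stood apart in other genes. The 10 named loci with the largest excess in replicate 1 were all seed genes (SESA4, OLEO1, CRA1, SESA2, SESA3, CRU3, OLEO2, OLEO3, CRB and PAP85), higher by 4.98 to 6.04 on the log2 scale. The 10 with the largest excess in replicate 2 were PP2-A5, LOX4, PP2-B13, WRKY30, TDR1, NAC036, CRK10, CYP81F2, XBAT34 and WRKY53, higher there by 3.22 to 4.34. LOX4, a lipoxygenase of the jasmonate pathway, was at 44.7 FPKM in replicate 2 and 1.39 in replicate 1, against 0.153 and 0.257 FPKM in WT. CYP81F2, an enzyme of indole glucosinolate defence compounds, was at 31.9 and 2.31 FPKM against 1.61 and 1.29 FPKM, and the senescence and defence regulator WRKY53 at 56.3 and 5.15 FPKM against 2.89 and 3.25 FPKM. In these 3 genes replicate 2 was the highest of the 4 libraries and replicate 1 lay nearer to WT. No test separates 2 single libraries, so these are values only.

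**Figure D5:**
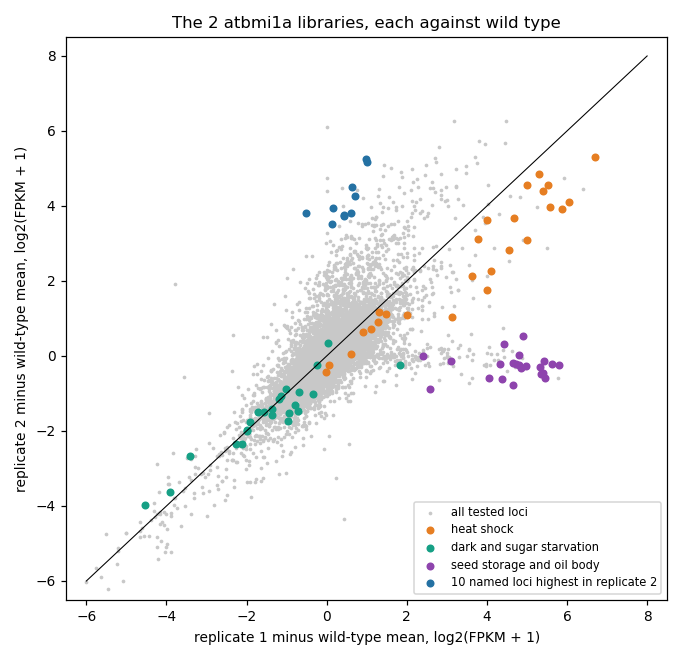
Log2 difference from the WT mean on the log2(FPKM + 1) scale in replicate 1 (horizontal axis) and in replicate 2 (vertical axis) of the libraries labelled atbmi1a; each point is 1 tested locus, the line marks equality, and both axes share the same WT libraries. Seed storage genes lie high in replicate 1 only (median 4.80 against -0.24), the 10 named loci highest in replicate 2 lie high on the vertical axis, and heat-shock and starvation genes have medians of 4.01 and -1.28 in replicate 1 and 2.55 and -1.50 in replicate 2.

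The libraries labelled atbmi1a were then tested directly against atbmi1b, a comparison that uses no WT library for its difference. At an adjusted p under 0.05, 679 loci were higher (3.49%) and 771 lower (3.96%) in those labelled atbmi1a, and with only the 6 libraries of WT and the single mutants in the fit 501 were called in all. With all 10 libraries in the fit, 35.3% of tested loci were called against WT and 7.45% against atbmi1b. AtBMI1A was higher (1.87, adjusted p = 0.00247) and AtBMI1B, at 0.182 and 0.108 FPKM in atbmi1b, was higher as well. Starvation genes were higher in 14 of 24 members: ASN1 was at 39.4 and 66.5 FPKM in the libraries labelled atbmi1a and at 8.95 and 11.8 FPKM in atbmi1b, so that the level lay between WT and atbmi1b, as it did for MCCA (31.1 and 31.2 FPKM against 11.3 and 13.7 FPKM). Light-harvesting genes were higher in 9 of 18 members, LHCB1.4 among them (981 and 1208 FPKM against 395 and 419 FPKM).

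In the other direction, flavonoid enzyme genes were lower than in atbmi1b in 8 of 16 members and light and ultraviolet-B genes in 8 of 17. F3H was at 88.3 and 43.1 FPKM against 140 and 159 FPKM in atbmi1b, and HYH at 79.8 and 93.5 FPKM against 203 and 270 FPKM (-1.43, adjusted p = 0.00522). LHY and CCA1 were lower too, at 173 and 145 FPKM against 295 and 357 FPKM (-1.03, adjusted p = 0.00528) and at 138 and 149 FPKM against 220 and 265 FPKM. GI was lower, at 5.61 and 4.33 FPKM against 10.9 and 13.3 FPKM (adjusted p = 0.00625), a case in which WT and atbmi1b lay together.

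Heat-shock genes were higher than in atbmi1b in 6 of 26 members and lower in none, and 5 of these 6 encode small heat-shock proteins. HSP17.4 was at 45.5 and 33.4 FPKM against 9.4 and 5.72 FPKM (2.26, adjusted p = 0.00574), and AT2G29500 at 93.7 and 71.5 FPKM against 27.1 and 28.7 FPKM (1.52, adjusted p = 0.0059). HSP17.6II, HSP18.2, AT1G53540 and HSA32, which helps to maintain acquired heat tolerance, were the others. HSP101 at 72.2 and 14.6 FPKM and HSFA2 at 55.9 and 8.27 FPKM were not called against atbmi1b, where they were at 76.9 and 100.4 FPKM and at 66.4 and 96 FPKM. Of the heat-shock factors only HSFB2B was called, and it was lower, at 10.9 and 6.63 FPKM against 18.3 and 29.2 FPKM in atbmi1b (-1.34; limma, adjusted p = 0.0238). COR413IM1 was higher than in atbmi1b (5.9 and 4.55 FPKM against 1.25 and 0.667 FPKM), and PR1 was above 0 in both libraries labelled atbmi1a and listed at 0 in both of atbmi1b (adjusted p = 0.0152).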

How the data were processed

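Per the labels' protocols, RNA was extracted with a Qiagen column kit and libraries followed a standard Illumina protocol. Per the submitters' processing notes, FastQC, TopHat, Cufflinks and Cuffdiff were used with the TAIR10 genome; versions and options: not given in the sources used here. Each locus has 1 deposited value per library. They were read as FPKM made by the authors, because the column headers say only that they are expression and the named tools write FPKM. Any further scaling by the authors between libraries, and the depth, were likewise not given.

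From these values, log2(FPKM + 1) was fitted with limma 3.58.1 in R 4.3.3 (empirical Bayes with a mean trend, 5 residual degrees of freedom over all 10 libraries) for the 19460 loci with a mean of 1 FPKM or more. Calls had a two-sided Benjamini-Hochberg adjusted p under 0.05 over all of these loci. The added 1 makes log2 differences of weakly expressed genes too small, and ± is its standard error with 2 libraries per group. Tables and figures were made with Python 3.11.15, pandas 2.3.3, numpy 2.4.6 and matplotlib 3.10.9. The fit was tested on simulated data with 1 spread per locus for all genotypes. There the median estimates lay near the changes put in, and the share of false calls came out above the nominal level. The wider spread of the pair labelled atbmi1a was not part of that simulation.

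The 32 gene lists, the tests and the comparison itself were chosen with earlier results of these data known. Of their 547 genes 546 are in the files. Genes were named by rule: the 3 AtBMI1 genes, the 10 highest and 10 lowest called loci that have a symbol, average 2 FPKM or more in the 4 libraries and do not overlap between groups, up to 4 called members a list by adjusted p, the seed genes highest in replicate 1, the neighbours of AtBMI1A, and the 10 loci with the widest gap between replicates each way. Others were named after their values were seen, among them HSP101, AT1G07400, CHS, CHI, DFR, LDOX, ASN1, STP1, HY5, PSBS, PIF4, PIF7, RVE8, TOC1, WRKY33, RD29A, KIN1, HSC70-1, VAL1, RING1A, RING1B, LHP1, DOG1, ABI3 and FUS3, and so were the members listed as not called. Coordinates, symbols and promoters came from RefSeq on TAIR10.1, where 26441 of the 27086 loci had a match. The alternatives were other scalings, filters and pseudocounts, a replicate block, fewer libraries in the fit, organelle loci removed, and each of the 4 libraries left out.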

Additional observations from a re-analysis of the deposited data

How the results depend on the processing

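The counts of loci called, 3299 higher and 3575 lower, stayed within 1.5 times of these values under median-ratio scaling, quantile normalization, all 3 other filters and a pseudocount of 0.1. With only the 4 WT and atbmi1a libraries in the fit they were 1366 and 1685, and 2983 of the 6874 reported calls (43.4%) were shared, all in the same direction. That fit gives no value against atbmi1b, for which the fit to the 6 libraries of WT and the single mutants called 501 loci in place of 1450. With organelle loci removed and libraries rescaled 2338 loci were lower and the percentage of calls that were higher went from 47.99 to 65.49, while the median of all loci moved from 0.02 to 0.14. Leaving out 1 library at a time gave 1725 to 3250 higher and 2077 to 3364 lower, 589 to 1111 higher and 662 to 930 lower by more than 1 on the log2 scale, and 1001 to 1849 against atbmi1b. The lowest of the first pair came without WT replicate 2, with 1952 and 2373 without WT replicate 1. The replicate block gave 3128 higher, 3408 lower and 1221 against atbmi1b. Among named genes the block ended the calls of M17 (limma, adjusted p = 0.0521) and WRKY33 (limma, adjusted p = 0.0576). Deviations from the group means correlated at -0.23 to 0.12 between same-numbered libraries. With 2 libraries per group this does not show whether same-numbered libraries shared a batch, which the labels do not give. Of 165 named genes tested, 85 kept direction and call under every alternative, 42 lost a call under at least 1 and 18 changed sign under at least 1. Of these 18, 14 turned without atbmi1a replicate 1, and over the left-out libraries their log2 differences ran from -0.25 to 5.79 (SESA4), -0.58 to 5.45 (OLEO1), -0.46 to 5.40 (CRA1), -0.20 to 5.64 (SESA2), -0.47 to 5.34 (SESA3), -0.30 to 5.32 (CRU3), -0.14 to 5.44 (OLEO2), -0.79 to 4.65 (OLEO3), -0.31 to 4.86 (CRB), -0.61 to 4.38 (PAP85), -0.058 to 4.87 (PER1), -0.068 to 2.12 (LEA18), -0.028 to 1.67 (ABI3) and -0.14 to 1.96 (FUS3). PP2-A5 ran from -0.51, without atbmi1a replicate 2, to 3.82, and TOC1 from -0.23 to 0.40, with -0.021 without WT replicate 1. RING1A ran from -0.12 to 0.0061 and was at 0.059 with organelle loci removed, where LGT5 was at 0.047. For results that moved through scaling the cause was not tested; fits with fewer libraries have fewer degrees of freedom. FPKM values give no depth, so no counting interval is given for low genes.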

Other observations

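Some loci were listed at 0 in both libraries of one genotype and at 1 FPKM or more in both of the other, which a fold change does not describe. Absolute depth is unknown, so such values may rest on few fragments, and the counts in the 2 directions do not compare directly. Among the deposited values 25 loci were at 0 FPKM in both WT libraries and at 1 FPKM or more in both libraries labelled atbmi1a, and 13 of them were also at 1 FPKM or more in both atbmi1b libraries. Within the WT pair itself, 29 loci were at 0 in replicate 1 and at 1 FPKM or more in replicate 2, and 22 the other way round. That is a looser rule, with 1 library on each side, so its counts do not compare directly with the 25. PR1 was one of the 25. DDF1, a relative of the cold-response CBF factors, was at 1.65 FPKM in replicate 1 and 14.7 FPKM in replicate 2. PP2-B14, a gene of the phloem protein 2 family, was at 1.46 and 20.9 FPKM. HSP23.6-MITO, a small heat-shock protein of mitochondria, was at 11.3 and 3.41 FPKM. The replicates of these 3 genes were far apart, although both lay above 0.

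In the other direction 8 loci were at 0 in both libraries labelled atbmi1a and at 1 FPKM or more in both WT libraries, and 3 of these were at 0 in both atbmi1b libraries. The highest was the chloroplast-encoded locus ATCG00600, at 208.6 and 192.9 FPKM in WT. AT5G27889 was at 10.9 and 27 FPKM in WT.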
